A study of Mus musculus with 204 samples.

Results

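Neurons that carried smooth muscle RNA were set against neurons that did not, among 204 single cells from the mouse distal colon. A cell counted as a neuron when at least 3 of Elavl3, Elavl4, Snap25, Stmn2 and Syt1 reached 2 on the deposited log2(RPKM + 1) scale, where RPKM is reads per kilobase of gene in a library of 1000000 reads. Of the 149 neurons, 48 had at least 2 of Acta2, Tagln, Des and Actg2 at 3 or more and are called neurons with muscle RNA. Another 71 had none of these 4 genes at 3 and are called neurons without muscle RNA. The remaining 30 neurons had exactly 1 of them at 3 and stand between the classes. Although every cell is labelled a neuron, 38 cells did not meet the neuron rule but had muscle RNA, here called other cells with muscle RNA, and 17 met neither rule. The comparison therefore rests on these 48 and 71 cells of the 204. The classes were chosen by the measured levels of the 9 genes of the rule, so those levels are not results.

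All cells came from VGLUT2-tdTomato mice, in which a red protein reports Slc17a6, the gene of the vesicular glutamate transporter VGLUT2. The outer muscle of the gut wall with its nerve plexus was dissociated and kept in culture overnight, and red cells were drawn up by hand into separate tubes. Polyadenylated RNA was sequenced on 3 plates of 66, 66 and 72 cells. No treatment, age, sex, animal or culture is labelled, and the reporter's construction is not described. The neurons with and without muscle RNA numbered 13 and 30 on plate 1, 18 and 15 on plate 2, and 17 and 26 on plate 3. Because cells are not replicates and no animals are named, no test was made. A gene is called higher or lower when the difference of the class means was at least 1 on the log2 scale, in the same direction, on each of the 3 plates.

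Smooth muscle of the gut wall contracts when phosphorylated myosin light chain drives myosin along actin filaments. Calponins, caldesmon, tropomyosin and smoothelin bind these filaments, and many of their genes are controlled by serum response factor, which binds a short DNA element called the CArG box. Smooth muscle cells placed in culture are known to lose mature contractile genes and to raise genes of matrix and migration. Myenteric neurons lie between the muscle layers they control, in contact with glia and other supporting cells.

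Among neurons, the share with muscle RNA was 32.2% (48 of 149; exact Clopper-Pearson 95% interval 24.8 to 40.4%). Plate 1 had a share of 24.5% (13 of 53 neurons; 13.8 to 38.3%), below that of plate 2, at 41.9% (18 of 43; 27.0 to 57.9%). Plate 3 lay between them, at 32.1% (17 of 53; 19.9 to 46.3%). The plate intervals overlap, and all intervals given here cover counting error only. The cut runs through a continuous range. The lowest second-highest muscle gene among neurons with muscle RNA was at 3.04, and the highest among the neurons between the classes was at 2.99. The highest muscle gene of any neuron without muscle RNA was at 2.96. Of the 48 neurons with muscle RNA, 24 had 2 of the 4 genes at 3 or more, 9 had 3 and 15 had all 4.

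The promoters of Myl9 and Cnn2 are shown because they led the contractile and calponin genes below and hold a CArG box, printed in capitals. They were chosen after the motif search for that reason. The letters are from RefSeq on GRCm38.p6, 5′ to 3′ on the plus strand, and stop before the first annotated base of the gene.
Myl9, chr2:156775214-156775419: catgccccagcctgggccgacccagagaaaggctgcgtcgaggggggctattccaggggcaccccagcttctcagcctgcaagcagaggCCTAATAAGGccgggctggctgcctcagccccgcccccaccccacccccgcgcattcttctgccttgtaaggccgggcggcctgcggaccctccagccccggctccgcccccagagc
Cnn2, chr10:79988350-79988583: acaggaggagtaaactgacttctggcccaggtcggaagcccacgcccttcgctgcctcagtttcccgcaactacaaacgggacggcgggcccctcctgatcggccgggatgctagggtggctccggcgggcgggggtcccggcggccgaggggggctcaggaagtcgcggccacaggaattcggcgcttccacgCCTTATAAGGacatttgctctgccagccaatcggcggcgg
The box of Cnn2 begins 56 bases before the RefSeq start. A window from 250 bases before to 50 after the start held such a box in 488 of 27025 mouse genes (1.81%) and in 149 of the 9513 compared genes with an entry (1.57%). Because the box reads the same class of letters on both strands, 1 search covered both. It was found in 3 of the 36 genes with an entry among those higher in neurons with muscle RNA, namely Myl9, Cnn2 and Rhoj. It was found in none of 23 genes with an entry among those lower. A match describes letters only, and no binding was measured.

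Of 15011 genes compared, 59 were higher in neurons with muscle RNA (0.393%). The 4 muscle genes of the rule are among them, which leaves 55. Another 40 genes were lower (0.266%). A gene entered the comparison when it reached 2 in at least 10% of the compared cells, whatever their class. The median difference over all compared genes stood at 0.00 for plate 1 and at −0.28 and −0.37 for plates 2 and 3. The middle compared gene was thus lower with muscle RNA on plates 2 and 3, and the cause was not tested. The calls in the 2 directions were not equally stable. Of the 55 higher genes, 11 kept their call under all 18 alternative settings, and of the 40 lower genes none did. Leaving out a plate or dropping the low-value filter cannot remove a call, so these settings count as kept for every called gene. When each cell was rescaled by its pan-neuronal RNA, the median over all genes moved from −0.21 to 0.19, and the split moved from 59 higher and 40 lower (59.6% higher) to 262 higher and 3 lower (98.9% higher). Counts over all genes include the 4 muscle genes of the rule unless stated.

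The classes also differed in quality measures. In units of 1000000 reads, median depth per cell on plate 1 was 4.54 with and 3.45 without muscle RNA. It was 3.29 and 6.41 on plate 2, and on plate 3 it was 3.56 and 6.87. The median share of reads on mitochondrial genes was higher in neurons with muscle RNA on every plate, at 4.94 against 2.95%, 5.41 against 3.02% and 6.80 against 2.68%. Markers of other cell types moved the same way: 18 of 48 neurons with muscle RNA (37.5%) and 4 of 71 without (5.63%) had at least 2 of 4 markers of glia, fibroblasts, endothelium or leukocytes at 3 or more. Plate 1 held 9 of those 18 cells. Whether a tube held 1 neuron or a neuron with part of another cell cannot be told apart from these values. Some neurons with muscle RNA had nearly equal values. On plate 3, cells 16 and 17 had 5.06 and 5.14% mitochondrial reads and summed pan-neuronal RPKM of 3862 and 3863. Cells 5 and 36 of that plate had 5.73 and 5.69%, and 6622 and 6667. On plate 1, cells 31 and 39 had Myl9 at 7.11 and 7.10 and summed contractile RPKM of 1172 and 1165. Both carried markers of glia, fibroblasts and leukocytes. They were less alike in mitochondrial reads, at 6.48 and 4.88%, and in pan-neuronal RPKM, at 2117 and 2362. These pairs are examples and not a full list. Whether such pairs are separate cells was not tested. Each was counted as 1 neuron in all shares, intervals, ranks and means.

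Some contractile genes outside the rule were higher in neurons with muscle RNA. Of 25 listed, 18 could be compared, and Myl9, Tpm2, Cald1, Smtn and Mylk, 5 of the 18, were higher. The share over all compared genes, 0.393%, stands beside this and every other list's count of higher genes. None was lower. The list's median difference was 0.88, against −0.21 over all compared genes, and 0.69 over all 25 members. Of the 18, 4 reached 2 in under 10% of neurons without muscle RNA and so passed the filter through the class in which they are high. Tpm2, Mylk and Smtn were among them. The count and the median are therefore a description only, as for the matrix, fibroblast, basement membrane and glial lists below. There this held for 5 of 15, 5 of 7, 5 of 8 and 3 of 6 compared members. It also held for 3 of 3 epithelial, 1 of 1 mesothelial, 1 of 1 pericyte and 4 of 8 trophic factor genes compared. Myh11, the smooth muscle myosin heavy chain and a defining gene of mature muscle, reached 2 in 8 of 48 neurons with muscle RNA and 2 of 71 without, and failed the filter.

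Myl9, the regulatory light chain of smooth muscle myosin (chr2:156775420-156781658 on GRCm38, plus strand), had the largest difference of the compared genes outside the rule. In neurons with muscle RNA its lowest, median and highest log2 values were 1.17, 6.52 and 8.22 on plate 1. They were 0.32, 5.01 and 11.07 on plate 2, and 1.84, 5.88 and 13.00 on plate 3. In neurons without muscle RNA they were 0.00, 0.45 and 4.11, then 0.00, 0.89 and 3.67, then 1.01, 1.52 and 2.29. The ranges overlapped on every plate, while the medians stood far apart. The difference of means was 5.00, 4.08 and 4.73 on plates 1, 2 and 3, or 4.60 ± 0.47 (SD, n = 3 plates). Myl9 reached 2 in 42 of 48 neurons with muscle RNA and in 8 of 71 without.

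Tpm2, beta-tropomyosin (chr4:43514711-43523765, minus strand), was nearly absent from neurons without muscle RNA, reaching 2 in 1 of 71. It did so in 36 of 48 neurons with muscle RNA. Its lowest, median and highest values in the latter were 0.00, 3.74 and 6.48 on plate 1, 0.00, 3.35 and 8.46 on plate 2, and 0.23, 3.87 and 10.95 on plate 3. The medians in neurons without were 0.03, 0.50 and 0.61, and a single cell of plate 1 stood apart at 4.77. The differences of means were 3.26, 2.75 and 3.65.

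The other called members are given with plates in the same order. Cald1, caldesmon, was higher by 2.44, 2.02 and 2.50 and reached 2 in 41 of 48 against 27 of 71 neurons. Smtn, smoothelin, was higher by 2.36, 1.55 and 2.20 (27 of 48 against 5 of 71). Mylk, the kinase that phosphorylates myosin light chain, was higher by 1.60, 1.50 and 2.29 and reached 2 in 18 of 48 and in none of 71. Of these 5 genes, Mylk was therefore the one seen in fewest neurons with muscle RNA.

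The plates disagreed on Cnn1 and Hspb1. Cnn1, calponin 1, differed by 2.48 and 2.86 on plates 2 and 3 but by 0.62 on plate 1, where its median in neurons with muscle RNA was 0.84. Hspb1, a small heat shock protein abundant in muscle, differed by −0.42, 2.57 and 2.68 and reached 2 in 53 of 71 neurons without muscle RNA. Pdlim7, a LIM domain protein of actin fibres, went the other way, at −0.51, −0.87 and −1.44, and was the only one of the 18 with differences below 0 on every plate. The list is thus not uniform: 12 of 18 members were above 0 on all plates, where 9.39% of all compared genes were.

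**Figure D1:**
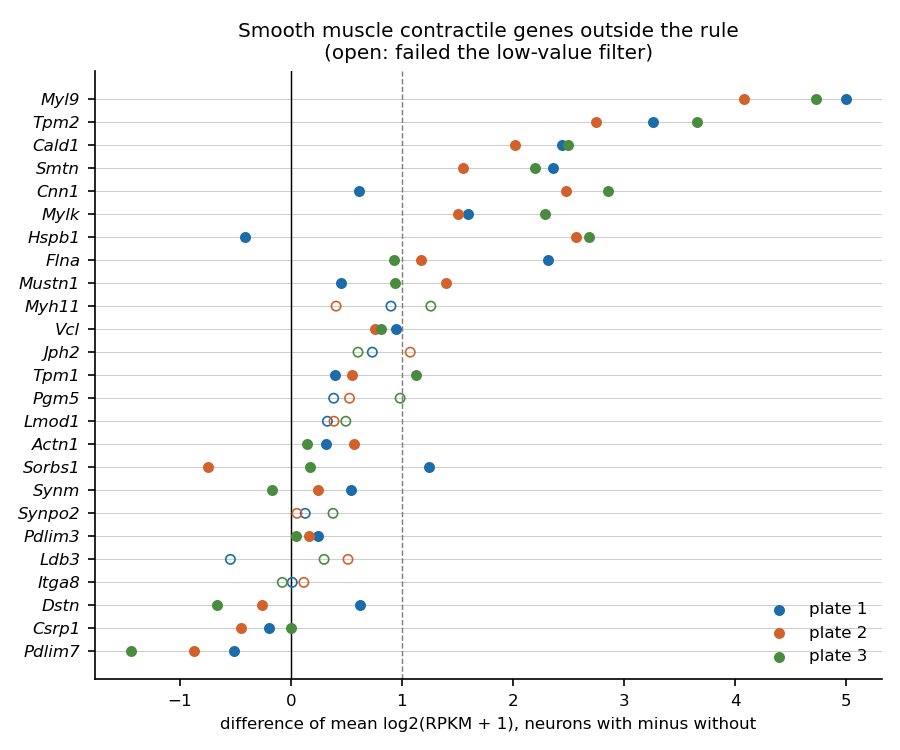
Difference of mean log2(RPKM + 1) between neurons with and without muscle RNA for 25 contractile genes, 1 dot per plate; open dots are the 7 genes that failed the low-value filter. Myl9 lies between 4.08 and 5.00, and Cnn1 and Hspb1 on plate 1 lie apart from plates 2 and 3.

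Cnn2, a calponin that is also made outside smooth muscle, is not on the contractile list. It was higher by 4.54, 2.90 and 2.94 (3.46 ± 0.93, SD over 3 plates) and reached 2 in 32 of 48 against 5 of 71 neurons. In neurons without muscle RNA on plates 2 and 3 its highest values were 0.87 and 0.25, below the medians of 2.83 and 4.23 in neurons with. Arpc1b, a subunit of the complex that nucleates branched actin, was higher by 3.20, 1.87 and 3.06. Cytoplasmic Actb reached 2 in every compared neuron and differed by 1.02, 0.39 and 0.46, which is not a call.

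**Figure D2:**
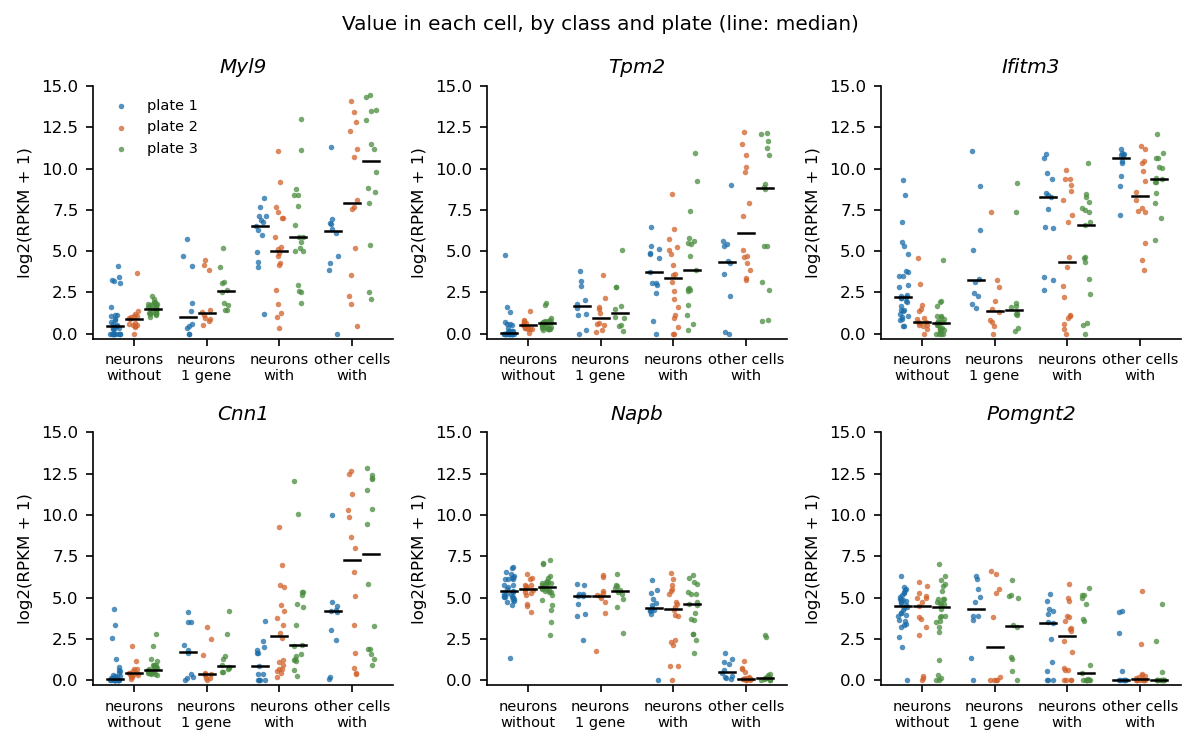
log2(RPKM + 1) of 6 genes in each cell, by class and plate, with the median as a line. Myl9, Tpm2 and Ifitm3 are higher in neurons with than without muscle RNA on each plate, Cnn1 less so on plate 1, while the medians of Napb and Pomgnt2 are lower.

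Regulators of the contractile programme, and muscle channels, held no called gene. None of 10 compared regulators was called, with a median difference of 0.03. Foxf1, a forkhead factor of gut mesenchyme, differed by 1.17, 0.91 and 0.94 and reached 2 in 12 of 48 neurons with muscle RNA and none of 71 without. Srf, serum response factor itself, differed by 1.22, 0.44 and 0.32, and Klf4, a factor linked to loss of the contractile state, by 1.93, 0.76 and 0.87. Among 9 compared channels and receptors of muscle none was called and 6 were below 0 on all plates, where 29.4% of all compared genes were. Chrm2, a muscarinic receptor, reached 2 in 20 of 48 against 41 of 71 neurons, and Pde5a, which degrades cyclic GMP, in 12 of 48 against 32 of 71.

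Some secreted and matrix genes were higher too. Of 15 compared genes of the matrix and culture response list, 4 were higher, among them Timp1, Cyr61 and Thbs1, and none was lower. Over all compared genes 0.393% were higher. The list's median was 1.47, against −0.21 over all compared genes. Timp1, an inhibitor of matrix proteases, was higher by 4.66, 2.07 and 2.37. Cyr61, a matricellular protein, was higher by 3.17, 1.88 and 2.71. Thbs1, thrombospondin 1, was higher by 2.10, 2.15 and 1.65. The list's median was 2.30 on plate 1 and 0.92 and 0.81 on plates 2 and 3. Plate 1 also held the most neurons with muscle RNA that carried markers of other types. With cells carrying such markers left out the median was 0.589, from plates 2 and 3 alone. On these 2 plates with the cells kept it was 0.869. The cause of these differences was not tested.

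Of 8 compared basement membrane genes only Sparc was called, at 3.21, 2.94 and 2.26. Sparc encodes a collagen-binding matricellular protein and reached 2 in 31 of 48 against 16 of 71 neurons. Nid1, nidogen, reached 2 in 15 of 48 neurons with and 1 of 71 without muscle RNA, with differences of 2.29, 0.98 and 1.00. Igfbp7, a secreted binding protein of insulin-like growth factors, was higher by 4.13, 2.81 and 2.29.

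Ifitm3, an interferon-induced membrane protein (chr7:141009586-141010770, minus strand), had the next largest difference after Myl9. Its lowest, median and highest values in neurons with muscle RNA were 2.63, 8.30 and 10.90 on plate 1, 0.00, 4.35 and 9.94 on plate 2, and 0.00, 6.60 and 10.31 on plate 3. Without muscle RNA they were 0.46, 2.19 and 9.28, then 0.00, 0.68 and 4.57, then 0.00, 0.66 and 4.48. The classes overlapped on all plates, most on plate 1. The differences of means were 4.45, 3.60 and 4.56. All 38 other cells with muscle RNA reached 2 for Ifitm3. So did the 17 cells that met neither rule, except cell 6 of plate 3, at 0.00. High Ifitm3 was thus not particular to cells with muscle RNA. B2m, the light chain of MHC class I, was higher by 2.60, 1.33 and 1.15 although nearly every neuron of both classes reached 2.

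Other named genes higher in neurons with muscle RNA were Ptrf, which builds caveolae (3.29, 1.55 and 2.09), and Ccnd2, cyclin D2 (2.23, 1.13 and 1.87). Abracl differed by 1.42, 1.33 and 1.68. Bak1, a mediator of cell death at the mitochondrion, differed by 1.21, 1.17 and 1.11, the most even of the 15 named genes over plates. Outside the rule for named genes, and picked after the values were seen, are mt-Rnr1, the small ribosomal RNA of the mitochondrion, at 1.83, 2.06 and 2.21, and the predicted gene Gm10800 at 3.54, 3.59 and 2.54. These 2 kept their call under all settings, as did, among others, Apoe, Arpc1b, Cnn2, Ifitm3, Igfbp7, Myl9, Sparc and Tpm2.

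Fibroblast and glial genes were higher in part. Dcn and Col1a1, matrix genes of fibroblasts, were 2 of 7 compared fibroblast genes to be called, at 2.25, 1.58 and 2.17 and at 2.12, 1.12 and 1.17. Over all compared genes 0.393% were called higher. Dcn reached 2 in 21 of 48 neurons with and 6 of 71 without muscle RNA, so most neurons with muscle RNA were below 2. Pdgfra, a receptor that marks fibroblasts, reached 2 in 1 of 48 and none of 71. Summed over the 12 listed fibroblast genes, RPKM ranged from 0.00 to 1164 with a median of 21.8 in neurons with muscle RNA, and from 0.00 to 378 with a median of 1.94 without.

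Of 6 compared glial genes, Apoe, a lipoprotein of glia and other support cells, was the only one called, at 2.95, 1.61 and 2.37. Sox10, the factor that defines enteric glia, differed by 2.62, 0.48 and 1.18. At least 2 of 4 glial markers were at 3 or more in 7 of the 13 neurons with muscle RNA from plate 1, but in 2 of 18 and 1 of 17 from plates 2 and 3. Plate 1 thus held most of these cells. Summed RPKM of the 10 glial genes had a median of 19.9 (range 0.00 to 1055) with and 4.12 (0.00 to 914) without muscle RNA.

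The lists of endothelium and leukocytes had 3 compared members each, with none called and median differences of 0.21 and 0.05. The epithelial list (3 compared), mesothelial list (1) and pericyte list (1) had medians of 0.89, 1.06 and 0.29, again with no call. Every compared member of these 3 lists fell short of the low-value filter in neurons without muscle RNA taken alone. Each thus passed it through the neurons with muscle RNA, so these medians are a description only. Over all listed members the medians were 0.56, 0.27 and 0.30. On plate 3 the epithelial and mesothelial medians of compared members stood at 0.00 and −0.01, and on plates 1 and 2 between 1.43 and 1.62. None of 4 genes of interstitial cells of Cajal could be compared, and Kit reached 2 in 2 of 48 and none of 71 neurons. Leaving out the cells with markers of glia, fibroblasts, endothelium or leukocytes left 4, 13 and 13 neurons with muscle RNA on plates 1, 2 and 3. Plate 1 then fell under the minimum of 5, and on plates 2 and 3 alone the mean difference was 3.86 for Myl9, 2.75 for Tpm2 and 3.46 for Ifitm3. Other genes named as higher also fell: Igfbp7 went from 3.08 to 1.62, Sparc from 2.80 to 1.67, Timp1 from 3.03 to 1.79 and Cyr61 from 2.59 to 1.56. Ptrf went from 2.31 to 1.07, B2m from 1.69 to 0.73, Apoe from 2.31 to 1.42, Smtn from 2.04 to 1.31, Dcn from 2.00 to 1.07 and Col1a1 from 1.47 to 0.81. These falls mix the loss of plate 1 with the loss of cells. On plates 2 and 3 with these cells kept, Myl9, Tpm2 and Ifitm3 were at 4.40, 3.20 and 4.08. Igfbp7 was then at 2.55, Sparc at 2.60, Timp1 at 2.22 and Cyr61 at 2.29. Ptrf was at 1.82, B2m at 1.24, Apoe at 1.99, Smtn at 1.87, Dcn at 1.87 and Col1a1 at 1.14. Dcn and Col1a1 are among the markers by which cells were left out, so their fall was fixed in advance. Both are among the 21 genes counted next. In all, 11 of 21 called genes under the naming rule shrank by more than 1.5 times and 15 were still called. Against plates 2 and 3 with these cells kept, 5 of the 21 shrank by more than 1.5 times. The contractile list's median was 0.46, against 0.94 on plates 2 and 3 with these cells kept. It had 7 members higher in either case, and 5 against 2 members below 0 on both plates.

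Adhesion, trophic factor and cell division genes gave no calls among 13, 8 and 4 compared. Itga5, the fibronectin receptor subunit, differed by 2.65, 0.85 and 1.10, and Gja1, connexin 43, by 2.39, 1.25 and 0.88. Csf1, a growth factor of macrophages, differed by 2.89, 0.97 and 0.58. Each of these differences was largest on plate 1. Among 9 immediate early genes Egr1, Fos and Nr4a1 lay above 0 and Dusp1 below 0 on all plates, with no call.

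Neuronal lists held few called genes. None of 14 pan-neuronal genes outside the rule was called, where 0.266% of all compared genes were lower. Of the 14, 11 were below 0 on all plates, where 29.4% of all compared genes were. The list's median difference was −0.92, against −0.21 over all compared genes. By plate it was −0.37, −0.95 and −1.37, against 0.00, −0.28 and −0.37. Tubb3, neuronal beta-tubulin, differed by −0.64, −2.25 and −1.75. Syp, synaptophysin, differed by −0.58, −0.93 and −2.79. Tubb3 reached 2 in 47 of 48 neurons with muscle RNA. With cells above 10% mitochondrial reads left out the list's median was −0.65, and with cells under 10000 genes left out it was −0.63, both settings chosen after seeing the data. Without cells carrying markers of other types it was −0.98, and without plate 1 it was −1.19. In each of these, over 2 plates, 5 members were lower. The median over all compared genes moved too. It went from −0.21 to 0.01 without cells above 10% mitochondrial reads and to −0.04 without cells under 10000 genes. Without cells carrying markers of other types it was −0.36, and without plate 1 it was −0.33 over all compared genes.

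Of 17 compared genes of synaptic vesicle release, Napb alone was lower, and 14 were below 0 on all plates. Over all compared genes these shares were 0.266% and 29.4%. Napb, a cofactor of vesicle fusion, had lowest, median and highest values of 0.00, 4.39 and 6.06 on plate 1, 0.00, 4.34 and 6.49 on plate 2 and 1.65, 4.62 and 6.36 on plate 3 in neurons with muscle RNA. Without it the values were 1.32, 5.38 and 6.85, then 4.12, 5.53 and 6.43, then 2.74, 5.65 and 7.30. The ranges overlapped on every plate, and the medians were lower with muscle RNA on each. The differences were −1.10, −1.61 and −1.13, and the call was kept under 7 of 18 settings. All 40 lower calls were kept with any plate left out, no low-value filter, a filter at 25% of cells or a pseudocount of 0.1. These settings are part of the 7. The Napb call was lost on the pan-neuronal scale. It was also lost without cells above 10% mitochondrial reads, under 10000 genes or under 1000000 reads. Of 18 neuronal channels and receptors none was called. Htr2b, a serotonin receptor, came nearest at −1.14, −0.97 and −1.24, and Chrna3, a nicotinic receptor subunit, lay between −0.35 and −1.39 on the 3 plates.

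Rescaling each cell to its pan-neuronal RNA left the pan-neuronal list at −0.27, the vesicle list at −0.22 and the channel list at −0.10. The counts below 0 on all plates then fell from 11 to 5, from 14 to 7 and from 13 to 2, but this scale is set by the pan-neuronal genes themselves and moved the median of all genes from −0.21 to 0.19. On it the contractile list stood at 1.40 with 7 members higher.

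**Figure D3:**
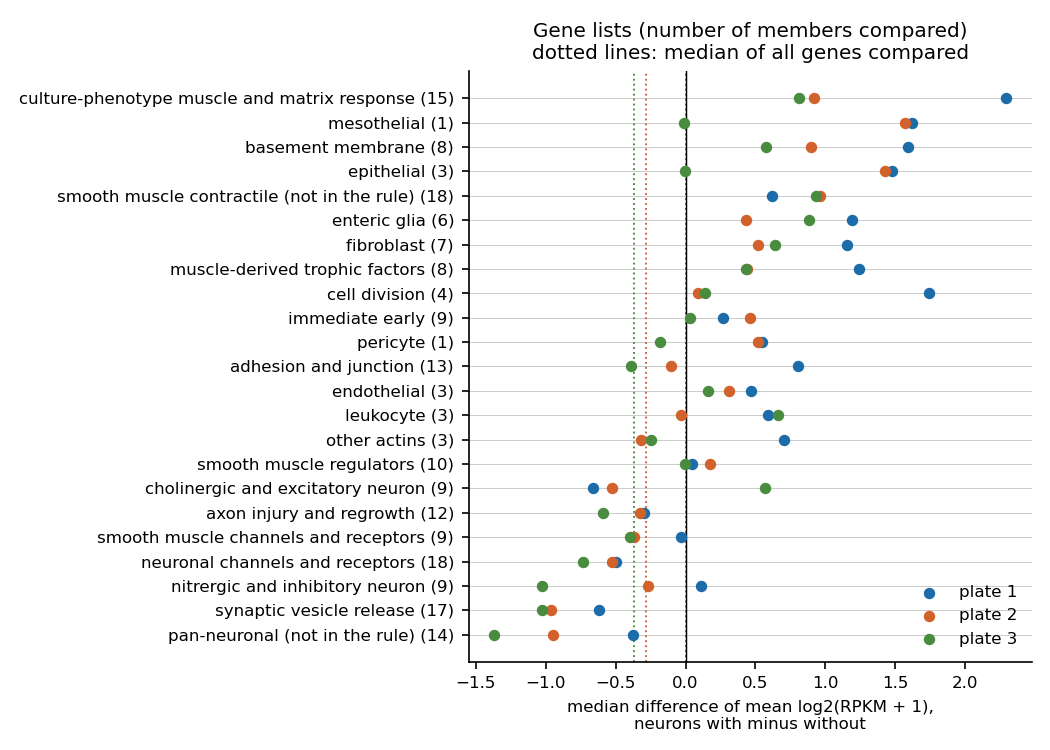
Median difference of mean log2(RPKM + 1) for each list with a compared member, 1 dot per plate; dotted lines are the medians of all compared genes on each plate. The matrix and contractile lists lie above 0 on all plates and the pan-neuronal and vesicle lists below 0.

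Summed RPKM of the 14 pan-neuronal genes had a median of 3736 in neurons with muscle RNA, 5374 in those between the classes and 6268 in those without. In the 38 other cells with muscle RNA it was 80.9. The order with, between, without held in the pooled medians, but on plate 2 the neurons between stood highest, at 5558 against 5489 without. Within plates, Spearman's rho over all neurons between this sum and that of the 4 muscle genes was −0.12 (53 cells), −0.38 (43) and −0.54 (53). Values in a cell share its library and depth, and the 4 genes set the classes, so this rho is a description only. Within the neurons with muscle RNA alone it was −0.18 (13 cells), 0.26 (18) and −0.58 (17), so plate 2 had the opposite sign there. The plot of both sums shows that the muscle RNA sums of these neurons overlapped those of the other cells on every plate.

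**Figure D4:**
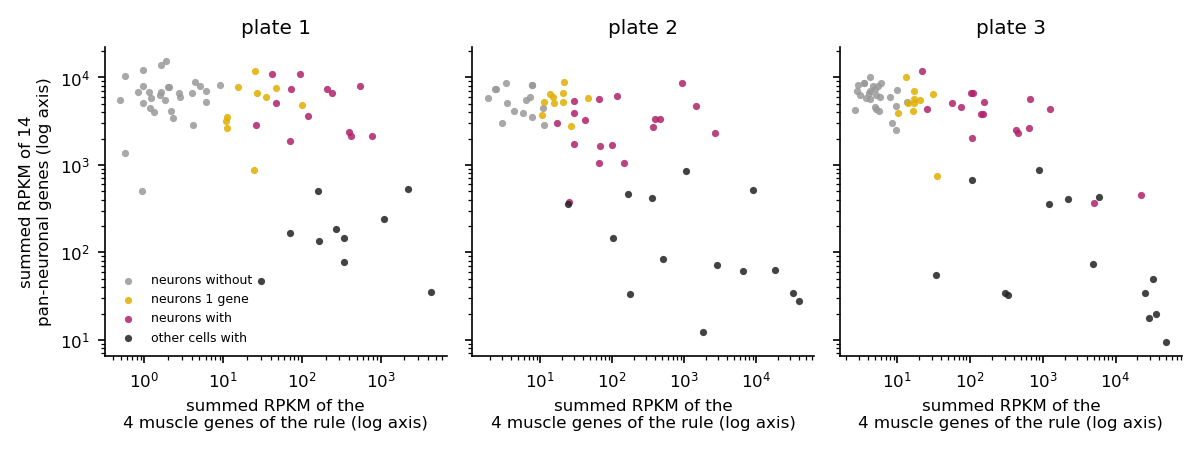
Summed RPKM of the 4 muscle genes of the rule against that of 14 pan-neuronal genes in each cell, on log axes, 1 panel per plate. Neurons with muscle RNA have a median pan-neuronal sum of 3736 and neurons without one of 6268, while the other cells with muscle RNA lie lower, at 80.9.

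Other contractile RNA was set against the 4 rule genes by rank. Over all neurons, the summed RPKM of the whole contractile list had a rho with the 4 genes of 0.09, 0.40 and 0.12 on plates 1, 2 and 3, and one of 0.64, 0.59 and 0.32 within neurons with muscle RNA. The list holds genes that neurons also express, and its sum had medians of 1292 with and 1211 without muscle RNA. After the weak values over all neurons were seen, a sum of 6 narrower muscle markers (Myh11, Cnn1, Myl9, Lmod1, Synpo2 and Smtn) was tried, with a rho of 0.67, 0.69 and 0.82 over all neurons and of 0.56, 0.75 and 0.72 within neurons with muscle RNA. Its medians were 89.5 with, 9.54 between and 3.08 without muscle RNA. The 4 rule genes set the classes, so each rho over all neurons in part restates that split. Cells are not replicates, and every rho here is a description only.

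On plates 2 and 3, Myl9, Tpm2 and Myh11 had lower means in neurons with muscle RNA than in the 38 other cells with muscle RNA, which numbered 10, 14 and 14 by plate. The difference of means, neurons minus other cells, was 0.24, −2.90 and −3.49 for Myl9 and −0.36, −3.78 and −3.05 for Tpm2. It was −0.85, −3.74 and −3.38 for Myh11, which reached 2 in 22 of the 38 other cells. For Cnn2 it was 0.34, 0.56 and −0.73, so its mean was higher in the neurons on plates 1 and 2. Plate 1 differed from the other plates here, as its other cells had a median of 307 summed RPKM of the rule genes, against 1468 and 3582. Neurons between the classes had Myl9 medians of 0.99, 1.23 and 2.57, nearer to neurons without muscle RNA than to those with.

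Transmitter genes were read as shares of cells at 2 or more, with wide intervals. Slc17a6 reached 2 in 26 of 48 neurons with muscle RNA (54.2%, 39.2 to 68.6%) and in 40 of 71 without (56.3%, 44.0 to 68.1%). None of the 38 other cells reached 2 (exact 95% upper bound 9.25%; 3 cells would be 7.89%). Plates did not share a direction. With muscle RNA the counts were 10 of 13, 7 of 18 and 9 of 17 on plates 1, 2 and 3, and without it 24 of 30, 7 of 15 and 9 of 26. Chat, the enzyme that makes acetylcholine, reached 2 in 33 of 48 (68.8%, 53.7 to 81.3%) and 50 of 71 (70.4%, 58.4 to 80.7%).

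Nos1, the neuronal nitric oxide synthase, reached 2 in 13 of 48 neurons with muscle RNA (27.1%, 15.3 to 41.8%) and in 31 of 71 without (43.7%, 31.9 to 56.0%). By plate the shares were 23.1 against 40.0%, 33.3 against 46.7% and 23.5 against 46.2%. The direction was shared by the 3 plates, but the intervals overlap on each and pooled. Over plates the mean difference of −17.6 percentage points shrank to −4.74 without cells carrying markers of other types and to −3.21 with a muscle threshold of 2. The mean of −4.74 still included plate 1, where only 4 neurons with muscle RNA were left. Neither Chat nor Nos1 reached 2 in 10 of 48 neurons with (20.8%, 10.5 to 35.0%) and 4 of 71 without muscle RNA (5.63%, 1.56 to 13.8%), and in 37 of the 38 other cells. The 9 compared cholinergic and excitatory genes had a median difference of −0.25 and the 9 nitrergic and inhibitory genes one of −0.68, with no calls in either list. On the pan-neuronal scale, where the median of all genes moved from −0.21 to 0.19, these medians were 0.10 and −0.13.

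**Figure D5:**
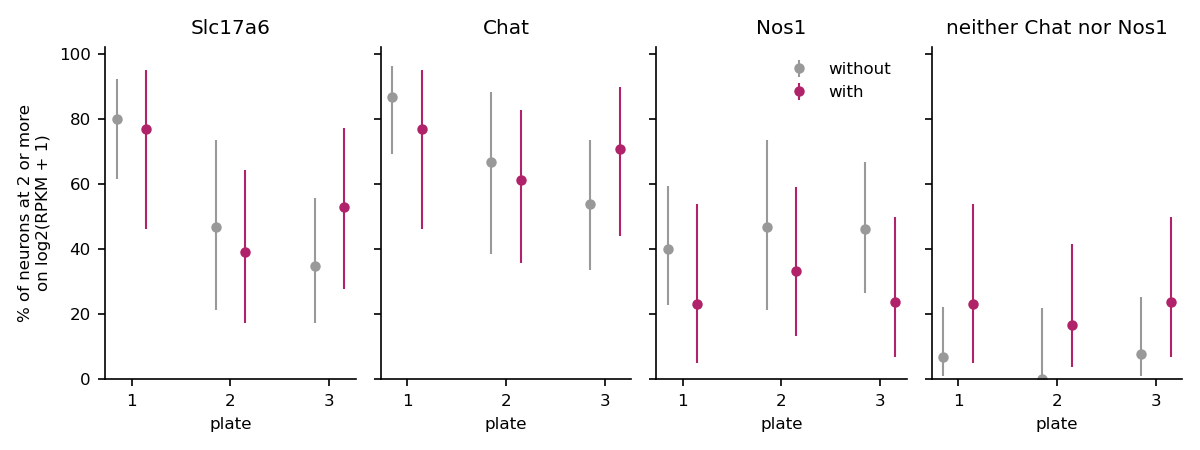
Share of neurons at 2 or more for Slc17a6, Chat and Nos1, and with neither Chat nor Nos1, by plate, with exact 95% intervals. Nos1 is lower with muscle RNA on each plate with overlapping intervals, and Slc17a6 changes direction on plate 3.

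The 2 largest mean differences among the named lower genes were of microRNA genes of chromosome 13, shown as the RefSeq hairpins with the seeds (bases 2 to 8 of each listed mature arm) in capitals. The hairpins are printed because the values below rest on their length. The assay read polyadenylated RNA, so the values concern transcripts that span the hairpin and not the mature microRNAs.
Mir27b: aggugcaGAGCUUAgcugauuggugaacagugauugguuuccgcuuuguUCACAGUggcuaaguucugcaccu
Mir3074-1: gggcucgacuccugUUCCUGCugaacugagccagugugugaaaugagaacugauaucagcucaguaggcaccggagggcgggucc
Mir3074-1 differed by −1.82, −2.43 and −2.41 and reached 2 in 25 of 48 against 56 of 71 neurons. Mir27b differed by −1.94, −1.48 and −1.75 (21 of 48 against 50 of 71). The hairpins are 85 and 73 bases long, and a cell had a median of 15 and 6 reads on them, so each read moves the value far. Of the 40 lower genes, 4 were under 200 bases and 2 had no matched length. Mir3074-1 lies on the strand opposite to Mir24-1, which differed by 0.00, −2.53 and −2.46, and without a known strand setting reads of these genes cannot be told apart. Mir3074-1 was called under 14 of 18 settings and Mir27b under 12.

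The other named lower genes had smaller differences. Pomgnt2, a glycosyltransferase of dystroglycan, differed by −1.68, −1.33 and −1.85 and reached 2 in 25 of 48 against 61 of 71 neurons. Its median on plate 3 was 0.43 with and 4.44 without muscle RNA. Cacnb1, a calcium channel subunit, differed by −1.45, −1.27 and −1.58. Slc7a14, a cationic amino acid transporter-like protein of neurons, differed by −1.12, −1.31 and −1.71 and reached 2 in none of the 38 other cells. Ppp2r2c, a phosphatase regulatory subunit, differed by −1.23, −1.36 and −1.37 and was likewise seen in none of them. Tusc2, Hist3h2a, Tmem8, Tmem230, Mblac2, Bean1, C1qtnf4 and Fbxo44 had mean differences between −1.21 and −1.55.

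Fewer of the lower calls than of the higher ones were kept when cells with low quality measures were left out. With cells above 10% mitochondrial reads left out, 9 genes were lower, 5 of them among the 40, while 41 of the 59 higher genes were still called. With cells under 10000 genes left out 8 were lower, with 7 shared, and 52 of the 59 were still higher. With cells under 1000000 reads left out 15 were lower, with 9 shared, and 51 of the 59 were still higher. The higher calls grew in these settings, from 0.393% of compared genes to 0.558, 0.707 and 0.558%. The median over all compared genes rose from −0.21 to 0.01, −0.04 and −0.09. Without plate 1, the plate on which neurons with muscle RNA had more reads in the median, 829 genes were lower and 95 higher. These calls ask for the other 2 plates only, which is less than a call over 3. The part of depth and RNA quality in the lower calls was not tested beyond these counts.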

How the data were processed

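Polyadenylated RNA of 204 hand-picked cells was measured. The authors deposited 1 table of log2 values, log2(RPKM + 1), for 49492 genes; base and added 1 were read from the values. The submitters' processing notes name mm10; the sources used here do not give the aligner, counter or strand setting. Columns were matched to cells by the number or sequencer index in the labels. Depth was recovered from RPKM and the summed exon length of GENCODE M21: the cell totals came out whole, at 453108 to 14310837 reads per cell, and 81.9% of values above 0 in genes with a length were whole reads within 0.001. Another 3 deposited single-cell files repeat columns of the table and were not used.

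Per plate, the difference of class means of log2(RPKM + 1) was taken with Python 3.11.15, pandas 2.3.3 and numpy 2.4.6; a pseudocount of 1 understates differences of low genes. Differences have no test, since no animal or culture is labelled and a plate is 1 sample. No doublet caller was run. Named genes are, per direction, the 15 called genes with the largest smallest-plate difference that reached 2 in 50% of the higher class on each plate (mitochondrial, ribosomal, Gm and Rik genes left out), up to 4 members of each of 24 lists (292 genes, 290 in the table), and Slc17a6, Chat and Nos1. Some are not reported here, and other genes were named after their values were seen. The members, rule, lists and comparison were chosen with earlier results of these data known. Steps were tested on simulated data.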

Additional observations from a re-analysis of the deposited data

How the results depend on the processing

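No paired analysis was possible because cell numbers only name cells and no test was made. Genes were compared under 18 alternatives, 3 of them (mitochondrial share, genes per cell, short genes) chosen after seeing the data (the last also leaves out genes with no matched length), and shares also at detection thresholds of 1 and 3. Genes called are given as a share of the genes compared, whose number changes with the setting. The 0.393% higher became 0.651% with 3 of 4 muscle genes needed, 1.37% for ratios of mean RPKM, 1.19% with a pseudocount of 0.1, 0.165% with no filter (the same 59 genes among 35679), 1.75% with pan-neuronal scaling, 0.707% without cells under 10000 genes, and 0.633 to 1.09% in leave-one-out over plates. The 0.266% lower became 0.0666% and 0.171% at muscle thresholds of 2 and 4, 0.434% with 3 of 4 genes, 0.733% for medians, 1.50% with a pseudocount of 0.1, 0.112% with no filter (the same 40 genes), 0.0200% with scaling, 5.95% without cells carrying markers of other types (plates 2 and 3 only), 0.101% without cells under 1000000 reads, 0.0613% without cells above 10% mitochondrial reads, 0.0529% without cells under 10000 genes, and 0.540 to 5.52% in leave-one-out. A call over 2 plates asks less than one over 3. The 5 contractile genes higher became 3 and 8 at thresholds of 2 and 4 and 8 with a pseudocount of 0.1. The 0 pan-neuronal genes lower became 1 at a threshold of 4, 5 without cells carrying markers of other types, and 0 to 5 in leave-one-out. The 32.2% share of neurons became 43.6%, 21.5% and 16.1% at thresholds of 2 and 4 and with 3 of 4 genes. The mean difference in share for Slc17a6, 2.49 points, turned to −4.97 with 3 of 4 genes, −5.29 and −3.01 at detection thresholds of 1 and 3, and ranged from −5.43 (without plate 3) to 7.62 (without plate 2) in leave-one-out. It grew to 16.2 at a muscle threshold of 2, 13.7 without cells carrying markers of other types and 11.5 without cells under 10000 genes. Without cells carrying markers of other types, differences in share still included plate 1, where 4 neurons with muscle RNA were left. For Chat, 0.48 points turned to −3.38 with 3 of 4 genes, −2.67 with 4 of 5 neuron genes, −1.48 at a detection threshold of 3, and −7.65 without plate 3, with 5.59 the highest in leave-one-out (without plate 1) and 8.42 at a detection threshold of 1. For Nos1, −17.6 points became −3.21 and −11.4 at muscle thresholds of 2 and 4, −4.74 without cells carrying markers of other types, −10.9 without cells under 1000000 reads, −23.4 and −8.48 at detection thresholds of 1 and 3, and −11.9 without cells under 10000 genes. The cause of these changes was not tested. Over the 94 named genes and these settings (1692 values), no called gene changed sign, 11 genes that were not called did so in 20 values, and 346 values moved by more than the spread over plates.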
